A study of Mus musculus with 14 samples.

Results

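Antisense genes are loci whose RNA is made from the strand opposite to another gene, without a known protein product. The members here are the genes of GENCODE vM21 gene type antisense that are listed in the 3 deposited expression tables, 2634 of 51626 gene symbols, with their transcripts summed per symbol. Of these, 969 were at 0 in every library and 1665 were above 0 in at least 1. For 6 members the symbol is shared with a gene of another type, whose transcripts enter the sum. A mean of at least 1 FPKM (fragments per kilobase of transcript, scaled to library size, so a level already divided by length) in a comparison was required for testing, and 200 members passed in at least 1 comparison, 73 in all 3 and 2434 in none. Because a gene can pass through the group in which it is high, the tested members are a selected set.

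The libraries came from the neonatal mouse brain at postnatal day 0.5. In the frontal cortex set, polyA RNA from rostral cortex was sequenced in 4 wild type (WT) C57BL6/J libraries and in 4 libraries of a C57BL6/J conditional knockout (cKO), in which exon 15 of Auts2 is floxed and Cre is driven by Emx1. Emx1-cre acts in the progenitors of cortical excitatory neurons and glia, so other cell types, interneurons among them, keep the gene. In the pull-down set, total RNA of C57BL6/J cortex was immunoprecipitated with an antibody to the C terminus of AUTS2 (RIP) or with control IgG, or left as 10% Input. The libraries form 2 matched trios, called A and B, with 2 neonates pooled per replicate. No engineered Auts2 allele is named for these groups. Counts are not given in the files, so depth and counting error are unknown.

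An antisense RNA can act on its neighbour by the act of transcription, by recruiting chromatin factors to the locus or by pairing with the sense RNA, and many are spliced, nuclear and much less abundant than the coding gene beside them. Well-studied cases include Airn and Kcnq1ot1, which silence imprinted neighbours in cis, and the opposite-strand RNAs of the Dlx gene clusters in interneuron precursors. AUTS2 is known as a partner of polycomb complexes in the nucleus and as a regulator of the cytoskeleton. The series title places it in an RNA-binding complex in the developing cortex.

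The largest group of members, 1388, lay wholly inside a coding gene on the other strand. Another 570 were head to head (the overlap holds both starts), 372 were tail to tail (both ends) and 81 enclosed a coding gene, while 223 overlapped no opposite-strand coding gene. At least 1 transcript with 2 or more exons was annotated for 2485 members, and 149 were unspliced. The coding gene sharing most exonic bases, then most gene body bases, is called the partner below. The geometry matters for the measurement. No source used here gives the strand setting of the read counting, so where exons overlap, reads of an antisense gene and of its partner cannot be told apart with certainty. Of all members, 1077 had no exonic base on the other strand of an annotated exon, 1222 had some but under 50% and 335 had 50% or more.

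The following windows show, for 4 pairs, what such an overlap looks like. Each window is the middle of the longest run in which a transcript of the antisense gene is the exact reverse complement of a transcript of its partner, and is written 5′ to 3′, in capitals for the antisense strand and in lower case for the partner strand (GENCODE vM21, GRCm38). Gm28626, 520 exonic bases at chr1:86303195-86304059 on the minus strand, lies wholly within exons of the glycosyltransferase gene B3gnt7. Tug1, a widely expressed long non-coding RNA at chr11:3639785-3649673 on the minus strand, overlaps exons of Morc2a, an ATPase of chromatin silencing, by 483 bases. Gm17634 at chr1:105356007-105361737 on the plus strand overlaps Rnf152, a lysosomal ubiquitin ligase, by 368 exonic bases. Gm36736 at chr7:121314810-121393101 on the minus strand overlaps Hs3st2, a heparan sulfate sulfotransferase, by 276.
Gm28626, chr1:86303392-86303421: TGGAGGAGGGGCCTCAGGGGCGGTGGCCCA
B3gnt7, same bases: tgggccaccgcccctgaggcccctcctcca
Tug1, chr11:3649418-3649447: CGCTGCCGCCGCCGCCGCCGCCGCCCGCCC
Morc2a, same bases: gggcgggcggcggcggcggcggcggcagcg
Gm17634, chr1:105356512-105356541: CAGCGCCTCCCGCAGCCCAGCCCTGCTCGT
Rnf152, same bases: acgagcagggctgggctgcgggaggcgctg
Gm36736, chr7:121392949-121392978: GGGCTCACTGGGCGTCGGCCCCGGGGGATC
Hs3st2, same bases: gatcccccggggccgacgcccagtgagccc

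A spliced antisense RNA also has junctions of its own. The first junctions of the most abundant antisense-type transcripts of 5 members that the pull-down results turn on are shown next, with the last 15 bases of exon 1 in lower case and the first 15 of exon 2 in capitals.
Dlx6os1: aggcccagccaccagAACCAGAGAGAAACC
Tug1: ccaaagtgaactacgTCCCGTGCCTCCTGA
Gm15564: cttccctctcacatgAATTCACCAAGCGTT
Gm14236: tcacctcatttcgagGGCTTGAATTGCCTC
A830036E02Rik: ggaagaaggctccctAACCAGAAAGAAGAC

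Other members carry sequence found in many genes, for which the authors' counting could split reads. For 4 of these, picked from members called in the pull-down, the 30-base window covered by matches from the most other genes is shown. A match has at least 100 bases at 90% identity or more among all GENCODE vM21 transcripts. Levels of such members are uncertain. The window of Gm13563 lay in matches to 1514 other genes, that of A830082K12Rik to 851, that of Gm15879 to 479 and that of A830036E02Rik to 60. Gm15564 and Gm14236 had no such match to any other gene, and Dlx6os1 and Tug1 matched 2 and 4.
Gm13563: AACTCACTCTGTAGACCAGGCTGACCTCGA
A830082K12Rik: TTCTGAGTACGAGGCCAGCCTGCTCTACAA
Gm15879: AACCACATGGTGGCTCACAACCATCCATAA
A830036E02Rik: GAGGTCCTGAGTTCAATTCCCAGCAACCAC

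RefSeq promoter windows (GRCm38.p6, 250 bases before to 50 after the start) were at hand for 996 members. The median number of CG dinucleotides (searched as the letters CG, which read the same on both strands) was 6 in these members, 7 in all 32851 promoters and 18.5 in the 96 members that were also tested, so the members with a measurable level had CG-richer promoters than members as a whole. Tug1 and Dlx6os1, both lower in the RIP libraries below, differ in this number, with Tug1 high and Dlx6os1 near the median of members. Each window surrounds a RefSeq start, which is not the start of the most abundant GENCODE transcript of either gene. The Tug1 window at chr11:3648765-3649064 on the minus strand held 37 CG dinucleotides, and 5.58% of all promoters held as many or more. The Dlx6os1 window at chr6:6869484-6869783 on the minus strand held 5, a number reached by 62% of promoters. CG is in capitals.
Tug1 promoter: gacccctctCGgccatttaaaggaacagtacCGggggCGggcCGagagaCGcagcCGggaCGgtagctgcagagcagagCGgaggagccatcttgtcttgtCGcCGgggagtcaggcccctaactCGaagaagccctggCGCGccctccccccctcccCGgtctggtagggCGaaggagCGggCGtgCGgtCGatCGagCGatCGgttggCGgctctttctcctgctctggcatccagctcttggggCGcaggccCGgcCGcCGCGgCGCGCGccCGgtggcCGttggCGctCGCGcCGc
Dlx6os1 promoter: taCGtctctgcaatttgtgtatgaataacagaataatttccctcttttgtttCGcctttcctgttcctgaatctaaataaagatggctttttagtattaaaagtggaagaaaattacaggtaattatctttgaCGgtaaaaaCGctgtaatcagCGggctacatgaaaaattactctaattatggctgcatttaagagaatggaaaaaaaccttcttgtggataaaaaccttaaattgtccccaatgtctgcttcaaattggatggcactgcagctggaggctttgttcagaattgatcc

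The libraries first need a short account of their own. Auts2 stood at 87.7, 92.2, 55.9 and 60.2 FPKM in WT 1 to 4 and at 29.8, 35.2, 30.4 and 34.5 in the cKO, lower by 1.13 on the log2 scale (SE 0.14, limma adjusted p = 0.0237). WT 1 and 2 stood apart from the other frontal cortex libraries for several members as well, and Xist, which coats the inactive X, was at 212 to 250 FPKM in WT 2 and cKO 1 to 3 and at 0.0854 to 0.397 in the others. Cortical excitatory neuron markers summed to 627 to 727 FPKM in the cKO and 675 to 721 in WT, and choroid plexus and meningeal markers to under 1. Interneuron markers summed to 145 to 180 in WT and 174 to 307 in the cKO. Radial glia markers were lower in WT 1 and 2 (299 to 305) than in WT 3 and 4 (363 to 382), and intermediate progenitor markers higher (11 to 12.7 and 7.46 to 7.90). Their part in the results was not tested. Over members, log2 levels correlated at 0.899 between RIP A and B, 0.770 between IgG A and B and 0.784 between Input A and B, so the RIP libraries resembled each other more than their controls did. The RIP libraries are the same in both pull-down comparisons, which therefore are not independent. In bulk tissue, fewer cells of a type and less RNA per cell cannot be told apart.

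**Figure D1:**
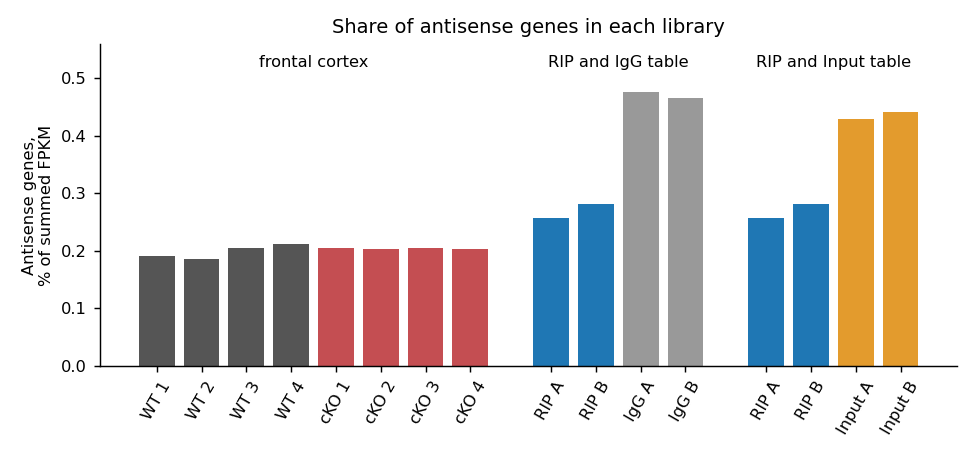
Share of each library's summed FPKM carried by the 2634 antisense genes (y axis, percent) in each library (x axis), by table. Both RIP libraries (0.257% and 0.281%) lie below both IgG (0.476% and 0.466%) and both Input libraries (0.430% and 0.441%), and the 8 frontal cortex libraries lie between 0.186% and 0.213%.

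Antisense genes made up a small part of the RNA in every library. Their share of summed FPKM was 0.191%, 0.186%, 0.205% and 0.213% in WT 1 to 4 and 0.206%, 0.204%, 0.205% and 0.203% in the cKO, and the groups overlapped. In the pull-down it was 0.257% in RIP A and 0.281% in RIP B, against 0.476% and 0.466% in IgG and 0.430% and 0.441% in Input. The plot of shares by library shows both RIP libraries below all 4 controls, with no overlap. The numbers of members at or above 1 FPKM went the same way, 123 and 133 in RIP against 228 and 197 in IgG. Those above 0 went the other way, 625 and 706 in RIP against 501 and 646 in IgG and 497 and 429 in Input.

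In frontal cortex the most abundant member was Tug1, at 48.1, 47.7, 48.1 and 53.1 FPKM in WT and 44.7, 51.2, 51.5 and 51.0 in the cKO. E130307A14Rik, which runs tail to tail with the signalling adaptor gene Traf3ip2, followed at 41.9 to 45.5 in WT and 40.2 to 48.8 in the cKO. These 2 genes stood clear of the rest. The next was Tmem147os at 18.3 to 24.5 in WT, and 14 of the 111 members tested had a mean of at least 10 over the 8 libraries. The median tested member stood at 2.11 FPKM, against 12.4 for coding genes. Among the 102 tested members with a partner, 75 lay below the partner's level and 27 above it. The tested members nearest the threshold were Gm16596 at a mean of 1.002 and, just outside it, Gm26935 at 0.9623.

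**Figure D2:**
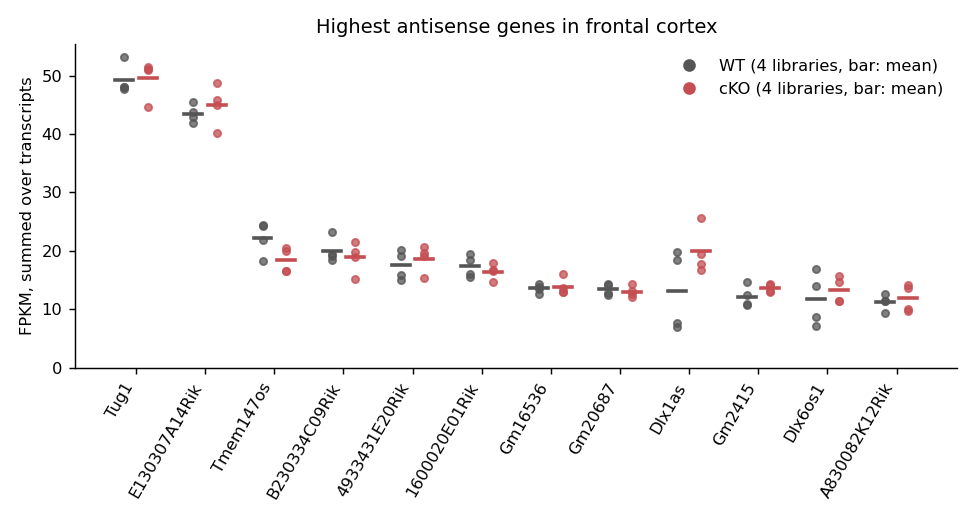
FPKM (y axis) of the 12 antisense genes with the highest WT mean (x axis) in the 4 WT and 4 cKO libraries, 1 point per library, with a bar at the group mean. Dlx1as is split within WT, with WT 1 and 2 at 7.64 and 7.0 and WT 3 and 4 at 19.8 and 18.4.

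Several of the abundant members lie beside transcription factors of forebrain patterning. Dlx1as, which encloses the interneuron homeobox gene Dlx1 on the other strand, stood at 7.64, 7.0, 19.8 and 18.4 FPKM in WT and 16.8, 25.7, 19.5 and 17.8 in the cKO. WT 1 and 2 alone lay low. Dlx1 itself stood at 41.4, 35.0, 36.1 and 35.6 in WT, with no such split. Dlx6os1 is known as a partner of DLX proteins at enhancers. Its annotated gene body encloses Dlx6, though its most abundant transcript lies outside Dlx6. Dlx6os1 showed the split less widely, at 8.65, 7.20, 14 and 16.9 in WT and 11.4 to 15.7 in the cKO. A830082K12Rik, head to head with the area patterning factor Nr2f1, stood at 9.33 to 12.6 in WT and 9.67 to 14.2 in the cKO, and the groups overlapped.

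The first comparison asks which antisense RNAs change when Auts2 is lost from the Emx1 lineage. No member was called at an adjusted p of 0.05 (0 of 111, limma with Benjamini-Hochberg adjustment over all genes), where 0.0235% of all 12786 genes, 3 in number, were called. At an unadjusted p under 0.05 stood 11 members, beside 7.91% of all genes, and 9 of the 11 were higher in the cKO. The log2 fold change was positive in 72 members and negative in 39, with a median of 0.04 (0.00 over all genes). With WT 1 and 2 left out, an alternative added after the data were seen, the median was -0.01 and 8 of 110 members, beside 356 of all 12779 genes, were under 0.05 unadjusted. The values in WT and cKO did not overlap for 5 members (4.50%), near the 4.41% of all genes.

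The members with the highest test statistics are given as values, since none passed. 0610040B10Rik, head to head with the palmitoyltransferase gene Zdhhc4, stood at 1.55, 2.2, 1.71 and 2.02 FPKM in WT and 3.46, 2.27, 2.76 and 3.41 in the cKO, a log2 difference of 0.47 (SE 0.13, limma adjusted p = 0.628). Every cKO library lay above every WT library, though it shares sequence with 95 other genes. 1500002C15Rik, tail to tail with the phosphatase gene Ssu72, stood at 0.861, 1.17, 1.13 and 1.45 in WT and 1.68, 1.76, 1.87 and 1.54 in the cKO (0.34, SE 0.11, limma adjusted p = 0.628). 2810001G20Rik, without an opposite-strand coding gene, stood at 7.53, 7.53, 8.51 and 9.03 in WT and 11.8, 9.18, 9.72 and 9.67 in the cKO (0.28, SE 0.10, limma adjusted p = 0.628). For both of these the groups did not overlap.

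A230077H06Rik, head to head with Vstm2b, stood at 4.01, 3.6, 5.37 and 6.09 in WT and 6.66, 6.12, 6.02 and 6.38 in the cKO. Here WT 1 and 2 again lay lowest. Airn, the imprinted RNA at Igf2r, stood at 0.626, 1.52, 0.583 and 1.56 in WT and 1.56, 1.55, 1.69 and 2.33 in the cKO, with the groups overlapping, while Igf2r differed by -0.16 on the log2 scale (limma adjusted p = 0.652). Among the lowest statistics were A930015D03Rik at the histocompatibility gene H2-T22 (1.55 to 1.92 in WT, 0.985 to 1.44 in the cKO), Tmem147os (18.3 to 24.5 and 16.5 to 20.5) and Gm2164 at the cortical POU factor gene Pou3f1 (2.51 to 5.20 and 1.90 to 2.59). Gm26982 (5.01 to 6.56 and 5.05 to 5.32) and 2700069I18Rik at Zfhx4 (1.59 to 1.88 and 0.903 to 1.81) completed them. Of these 5 members only A930015D03Rik had no overlap.

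An antisense gene and its partner can also be set against each other within a library. Of 113 antisense-coding pairs in frontal cortex, 0 differed in their change between WT and cKO by the pair test (limma on the difference of the log2 values, fitted over all opposite-strand pairs), and 0% of all 1259 pairs did. At an unadjusted p under 0.05 stood 10 of the antisense-coding pairs and 108 of all pairs. The log2 fold changes of 84 members and their tested partners had Pearson's r = -0.01 across pairs, which share libraries and, in part, partners. Within Auts2 itself 3 members are annotated, 2810432F15Rik, 4930563F08Rik and Gm42439, and each was listed at 0 in all libraries of all 3 tables, so no antisense RNA was measured at the deleted gene.

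The pull-down comparisons ask which RNAs are recovered with AUTS2. Most tested antisense genes had lower values in the RIP, and few were called higher. Against IgG, 4 of 152 tested members were called higher (2.63%, beside 13.7% of all 14570 genes) and 16 lower (10.5%, beside 9.69%). Against Input, 2 of 149 were higher (1.34%, beside 19.3% of all 14458 genes) and 24 lower (16.1%, beside 16.6%). The share called lower thus lay near that of all genes in both comparisons, and the share called higher below it. The share called higher was also below that of all genes for lincRNA (3.46% and 5.11%) and processed transcripts (5.63% and 10.3%). With quantile normalization 4 of 152 members were higher and 9 lower against IgG, beside 1367 and 1349 of all 14570 genes. Against Input 5 of 149 were higher and 19 lower, beside 2562 and 2277 of all 14458 genes. With this scaling the shares called lower also lay below those of all genes. Some cell type markers differed between the same libraries: 6 striatal neuron markers summed to 126 to 137 FPKM in RIP and 75.7 to 103 in IgG, 4 microglial markers to 8.51 to 9.24 and 13.5 to 14.8, and 5 radial glia markers to 189 to 193 in RIP and 334 to 352 in Input. Their part in the members' differences was not tested.

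Over all tested members the log2 fold change had a median of -0.31 against IgG (110 of 152 negative) and -0.37 against Input (105 of 149 negative). The medians over all genes were 0.02 and -0.02, and over coding genes 0.10 and 0.07. Other non-coding classes stood near the antisense genes, with -0.43 and -0.46 for lincRNA and -0.27 and -0.29 for processed transcripts. Among the 27 and 28 members with a mean of at least 5 FPKM the medians were -0.77 and -0.88, and with quantile normalization over all tested members -0.12 and -0.19. Without the filter on low values they were -0.06 over 1157 members and, with the sign turned, 0.05 over 1063. RIP and control values did not overlap for 82 members against IgG (53.9%, beside 64.4% of all genes) and for 86 against Input (57.7%, beside 71.1%).

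**Figure D3:**
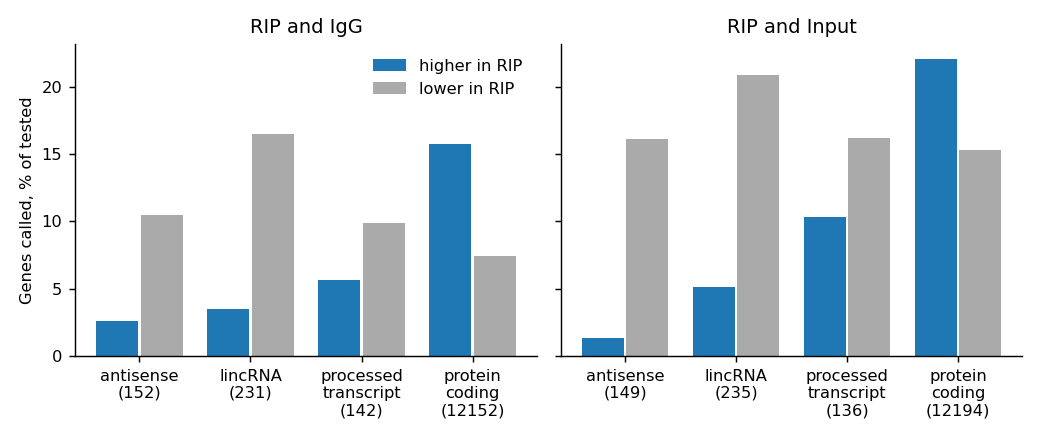
Percent of tested genes called higher (blue) or lower (grey) in RIP at an adjusted p under 0.05 (y axis), by annotated gene type (x axis, number tested in brackets), against IgG (left) and Input (right). Antisense genes have the smallest blue bars, 2.63% and 1.34%, next to 3.46% and 5.11% of lincRNA genes and 5.63% and 10.3% of processed transcripts. Coding genes have 15.8% and 22.1%, at median levels of 9.38 and 9.70 FPKM against 1.75 and 1.93 for antisense genes.

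The calls of single members rest on 2 libraries a group, and the limits of this are uneven. Without IgG A, 0 of 14330 genes of any kind were called against IgG, with 39 of 139 members and 5177 of all genes under an unadjusted p of 0.05. Without RIP A or RIP B, fewer members and fewer of all genes were called in both comparisons. The median log2 fold change of the members was then -0.29 and -0.37 against IgG and -0.35 and -0.50 against Input. With the trio letter as a block, 2 members were higher and 18 lower against IgG, beside 2023 and 1432 of all 14570 genes. The members below that kept their call under every alternative other than leaving out a library numbered 8 of 20 against IgG and 11 of 26 against Input. The RIP libraries are scaled slightly differently in the Input table, so where both controls are given the RIP levels are those of the IgG table.

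Summed per symbol, with a transcript of another gene type that is given below, Dlx6os1 had the largest fall against IgG. It stood at 6.69 and 6.95 FPKM in RIP A and B, 35.3 and 33.2 in IgG and 23.4 and 25.7 in Input (RIP 6.82 and 7.06 in that table's scaling). The log2 fold change was -2.17 against IgG (SE 0.15, limma adjusted p = 0.00248, 0.0503 without IgG A) and -1.68 against Input (SE 0.16, limma adjusted p = 0.00133). Both RIP libraries lay far below all 4 controls. Its partner Dlx6 went another way, at 21.9 and 27.7 in RIP, 22.2 and 20.5 in IgG and 14.7 and 9.14 in Input, a log2 fold change of 0.20 against IgG (limma adjusted p = 0.414) and a rise of 1.05 against Input (limma adjusted p = 0.0225). Dlx6os1 shares no exonic base with Dlx6. Its 2 main antisense-type transcripts were both lower, with means of 3.57 in RIP against 14.8 in IgG and of 2.43 against 7.75, and another transcript under the same symbol but of another gene type stood at 0.822 against 11.7.

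Interneuron markers, Gad1, Gad2, Dlx1, Dlx2, Lhx6 and Sst, summed to 223 to 227 FPKM in RIP and 196 to 234 in IgG, and in the other table to 226 to 231 in RIP and 218 to 241 in Input. The sums overlapped in both tables, though of these 6 genes Dlx1 was called higher against Input (0.53, limma adjusted p = 0.0136). Dlx5 and Dlx6, which are not among the 6, were also called higher against Input (1.05 each, limma adjusted p = 0.00558 and 0.0225). Against IgG neither was called (0.34 and 0.20, limma adjusted p = 0.151 and 0.414). Dlx1as, at the other Dlx cluster, stood at 12.6 and 15.5 in RIP, 14 and 16 in IgG and 16.6 and 32.5 in Input, and was not called in either comparison. The antisense gene of this other cluster thus gave overlapping values against IgG. Against Input both RIP libraries (12.9 and 15.8 in that table's scaling) lay below both Input libraries.

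Tug1 was lower in RIP at 20.1 and 21.6 FPKM, against 44.5 and 37.5 in IgG and 45.3 and 49.4 in Input. The log2 fold change was -0.94 (SE 0.14, limma adjusted p = 0.00741, lost without IgG A or RIP A) and -1.12 (SE 0.12, limma adjusted p = 0.00200). Morc2a, on the other strand, has its annotated gene start 482 bases from that of Tug1. The shared bases printed above belong to a Tug1 transcript other than the most abundant one, which begins outside Morc2a. Morc2a was higher in RIP, at 64.5 and 52.4 against 24.0 and 24.7 in IgG and 15.8 and 19.3 in Input. Its log2 fold changes were 1.22 and 1.71 (limma adjusted p = 0.00392 and 0.00145). The 2 strands of this head-to-head locus therefore differed in direction with no overlap between RIP and control for either gene. The pair difference was -2.16 on the log2 scale against IgG (SE 0.32, limma adjusted p = 0.0460, and 0.110 with the trio block) and -2.83 against Input (SE 0.30, limma adjusted p = 0.0165). Without RIP A the pair adjusted p was 0.464 and 0.142, and without RIP B 0.400 and 0.164.

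**Figure D4:**
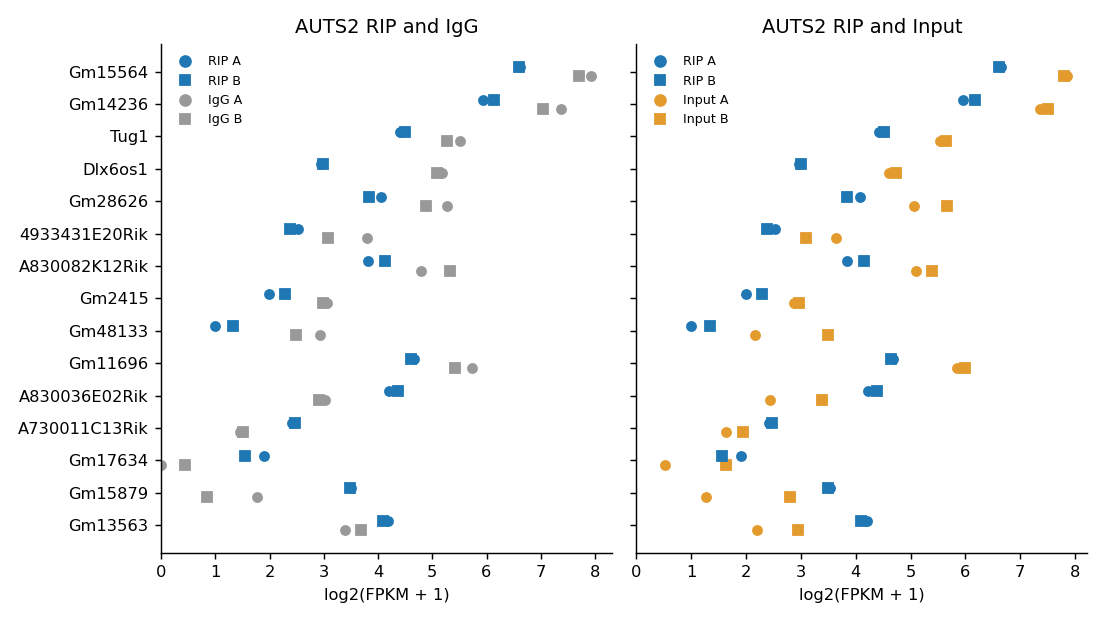
Level of 15 antisense genes as log2(FPKM + 1) (x axis) in the RIP and IgG table (left) and the RIP and Input table (right), with circles for trio A and squares for trio B. The 10 genes at the top, called lower against both controls, have both RIP libraries left of both controls, and A830036E02Rik has them to the right in both panels.

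The highest antisense levels of the pull-down set belonged to 2 short genes without sequence shared with other genes. Gm15564, whose exons touch no annotated exon on the other strand, stood at 97.3 and 95.7 FPKM in RIP, 242 and 209 in IgG and 231 and 222 in Input, a log2 fold change of -1.21 (SE 0.11, limma adjusted p = 0.00273) and -1.20 (SE 0.08, limma adjusted p = 8.1e-04). Gm14236, head to head with Ripor3, stood at 60 and 69.7 in RIP, 165 and 130 in IgG and 164 and 181 in Input (-1.17, SE 0.15, limma adjusted p = 0.00504, and -1.38, SE 0.11, limma adjusted p = 0.00107). Without IgG A the adjusted p of these genes against IgG was 0.0503 and 0.0516. Their partners Parp9 and Ripor3 were under 1 FPKM in all of these libraries.

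Another gene of this kind was Gm28626 within B3gnt7, at 15.7 and 13.2 FPKM in RIP, 37.4 and 28.5 in IgG and 32.6 and 49.8 in Input (log2 fold changes of -1.13 and -1.40, limma adjusted p = 0.00914 and 0.00618). B3gnt7, with which every exonic base is shared, stood at 2.13 and 2.5 in RIP and 2.61 and 2.25 in IgG. Against Input it stood at 2.17 and 2.54 in RIP and 4.96 and 4.22, with no overlap (log2 difference -0.73, limma adjusted p = 0.0613), and it was called in neither comparison. Without RIP B or IgG A the call against IgG was lost (limma adjusted p = 0.0585 and 0.0598), and against Input it was lost without either RIP library (0.0558 and 0.0637). In the polyA libraries of frontal cortex Gm14236 was listed at 0 in all 8, Gm15564 averaged 0.0325 in WT and Gm28626 0.102. The neuronal tubulin gene Tubb3 was also listed at 0 there, so a 0 in this table can be a failed estimate. The frontal cortex and pull-down tables differ in tissue, RNA selection, library kit and scaling, which cannot be told apart.

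Other members called lower against both controls were A830082K12Rik, Gm11696, Gm2415, Gm48133 and 4933431E20Rik, which with the 5 above make 10. The list draws on the same RIP libraries both times. A830082K12Rik stood at 13 and 16.5 FPKM in RIP, 26.7 and 39 in IgG and 33.1 and 41.2 in Input, while the neighbouring Nr2f1 differed by -0.22 and 0.32 and was not called. Gm11696, head to head with the G protein gene Gna13, stood at 24.2 and 23.5 in RIP, 52.4 and 42.0 in IgG and 56.6 and 62.7 in Input. Both share sequence with many other genes (859 and 426), so their own levels are uncertain. Gm48133, inside the ceramide transporter gene Col4a3bp, stood at 0.981 and 1.5 in RIP, 6.63 and 4.60 in IgG and 3.47 and 10.3 in Input. 4933431E20Rik (log2 fold changes of -1.0 and -0.90) and Gm2415 at Ctdspl (-0.89 and -0.77) had the smallest falls of the 10. Against IgG all 5 lost the call without RIP A, RIP B or IgG A (limma adjusted p from 0.0506 to 0.249). Against Input Gm48133, 4933431E20Rik and Gm2415 lost it without RIP A or RIP B (0.124 to 0.238) and A830082K12Rik without RIP A (0.0535). Of these 5, over all alternatives, the call was kept least often by 4933431E20Rik against IgG, in 5 of 15, and by Gm48133 against Input, in 5 of 13.

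Against IgG alone, Kcnq1ot1, the imprinted RNA inside Kcnq1, was lower, at 0.625 and 0.776 FPKM in RIP and 3.99 and 3.45 in IgG (log2 fold change -1.47, SE 0.29, limma adjusted p = 0.0173). Input lay between, at 1.15 and 1.56. This gene is annotated as 1 unspliced exon of 93092 bases, shares sequence with 543 other genes, and had a fold change of -0.27 (limma adjusted p = 0.496) once trends on length and GC content were removed. Each library left out in turn also ended its call (limma adjusted p from 0.0551 to 0.125).

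Another 5 members were lower against IgG alone. Gm42884 at the microtubule-binding gene Clip2 stood at 0 and 0.581 FPKM in RIP and 6.14 and 2.13 in IgG, while Clip2 rose by 0.81. Gm20463 lies wholly within exons of the ubiquitin ligase gene Rnf5 and stood at 0 and 0.670 against 3.54 and 2.46, and Rnf5 was lower as well (-0.82, limma adjusted p = 0.0236). It was the only called member whose partner was called in the same direction against IgG. A230020J21Rik at the heme exporter gene Flvcr1 stood at 2.53 and 5.86 against 11.6 and 9.58. E430024P14Rik (0.702 and 0.359 against 2.59 and 2.72) and Gm11670 in the Wnt feedback gene Axin2 (0.939 and 0.480 against 2.54 and 3.52) missed the threshold with the trio block, at limma adjusted p = 0.0508 and 0.0514. Beside Input, Gm11670 stood at 0.956 and 0.487 in RIP and at 0 and 0 in Input. E430024P14Rik stood at 0.715 and 0.364 in RIP and 0.751 and 0.508 in Input, and A230020J21Rik at 2.58 and 5.95 against 12.8 and 6.87. The RIP and Input values of Gm42884 and Gm20463 overlapped. All 5 lost their call without RIP A.

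Against Input alone, the largest fall was that of 2900060B14Rik, an unspliced gene inside Clasp1, which binds microtubule ends. It stood at 0.601 and 0.446 FPKM in RIP and 9.33 and 5.87 in Input (log2 fold change -2.47, SE 0.31, limma adjusted p = 0.00292), with Clasp1 at 62.8 and 68.9 against 54.4 and 52.7. The call held in all 14 alternatives. Gm36736 stood at 3.02 and 2.31 in RIP and 8.75 and 13.4 in Input (-1.70, SE 0.27, limma adjusted p = 0.00596), and Hs3st2 went the other way, from 6.20 and 8.92 in Input to 21.4 and 22.9 in RIP (1.45, limma adjusted p = 0.00422). Without RIP A or RIP B the adjusted p of Gm36736 was 0.0541 and 0.0619. Gm28289 at the zinc finger gene Hivep2 was listed at 0 in both RIP libraries and at 1.79 and 2.28 in Input, with Hivep2 up by 0.59. Gm28289 passed the filter through Input alone, and its 0 values may be failed estimates. Its call was lost at a pseudocount of 0.1 (limma adjusted p = 0.0807) and with length and GC trends removed (limma adjusted p = 0.0780). It was also lost without RIP A or RIP B, each with a log2 fold change of -1.60.

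Another 11 members were lower against Input alone. AU022754, head to head with the ligand gene Wnt7b, stood at 2.38 and 1.67 FPKM in RIP and 6.46 and 5.56 in Input. Gm11266, inside the transcription factor gene Nfib, stood at 4.04 and 3.33 against 7.12 and 10.2, and D430036J16Rik at the serotonin receptor gene Htr1b at 0.674 and 0.727 against 2.58 and 3.47. None of these 3 partners was called. Gm10658 at Ptpn9 (2.55 and 3.38 against 10.6 and 8.27), 1700025N21Rik in Chst11 (0.356 and 1.09 against 4.12 and 3.15), Gm15641 in Togaram2 (0.365 and 1.49 against 4.22 and 4.29) and Gm30893 at Hecw1 (0 and 0.276 against 1.88 and 3.19) were of like size. Gm13375, Gm16341, Gm37273 and Trmt61b, a symbol that also names a tRNA methyltransferase, made up the rest of the 24, with log2 fold changes from -0.91 to -1.34. All 11 lost the call without RIP A, 9 without RIP B, 8 without Input A and 8 without Input B. With length and GC trends removed 8 lost it, among them Gm16341 (-0.34, limma adjusted p = 0.362), Gm37273 (-0.50, limma adjusted p = 0.250) and Gm11266 (-0.51, limma adjusted p = 0.169).

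Few members were higher in RIP. A830036E02Rik was the only one called against both controls, at 17.4 and 19.7 FPKM in RIP, 7.12 and 6.48 in IgG and 4.39 and 9.49 in Input (log2 fold changes of 1.32, SE 0.17, limma adjusted p = 0.00520, and 1.40, SE 0.33, limma adjusted p = 0.0213). It lies head to head with the keratin gene Krt12, which was under 1 in these libraries, and shares the window printed above with other genes. Without RIP B or IgG A its adjusted p against IgG was 0.0578 and 0.0503, and without RIP A or RIP B it was 0.128 and 0.147 against Input. Gm15879 at Dnase1 stood at 10.3 and 10.2 in RIP and 2.40 and 0.796 in IgG (2.19, SE 0.34, limma adjusted p = 0.00850), and Gm13563 at Entr1 stood at 17.4 and 16.2 in RIP and 3.59 and 6.74 in Input (1.58, SE 0.28, limma adjusted p = 0.00839). These 3 members share sequence with many other genes (61, 480 and 1518), so their own levels are uncertain. Matches to 10 or more genes were found for 21 tested members in each pull-down comparison. Gm15879 was not called without RIP A, RIP B or IgG A (limma adjusted p = 0.0671, 0.0579 and 0.0503), nor Gm13563 without RIP A or RIP B (0.0945 and 0.0735).

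The other rises against IgG were small in level and ended with the trio block. Gm17634 stood at 2.70 and 1.92 FPKM in RIP and 0 and 0.350 in IgG (log2 fold change 1.5, SE 0.41, limma adjusted p = 0.0439, and 0.0534 with the block). A730011C13Rik inside the lipid kinase gene Pi4kb stood at 4.30 and 4.50 against 1.73 and 1.84 (0.96, SE 0.25, limma adjusted p = 0.0387, and 0.0541 with the block). In each the RIP libraries lay above both IgG libraries. Leaving out RIP B, IgG A or IgG B also ended both calls, with adjusted p from 0.0602 to 0.293.

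Set beside their partners, most antisense genes stood at a lower level. Against IgG, 109 of 144 members with a partner lay below its level, with medians of 1.78 and 15.3 FPKM, and against Input 106 of 140, with 1.98 and 14.3. Of the 118 tested partners against IgG, 31 were called higher and 9 lower (of all coding genes 15.8% and 7.46%), with a median log2 fold change of 0.21 where that of the antisense genes beside them was -0.29. Against Input 44 of 114 partners were higher and 12 lower (of all coding genes 22.1% and 15.3%), with medians of 0.32 and -0.34. Antisense gene and partner had the same sign in 53 of 118 pairs against IgG and 49 of 114 against Input. Their fold changes had Pearson's r = 0.01 over 118 pairs and 0.05 over 114, as the scatter of the 2 fold changes shows. Of 17 members called lower against Input with a tested partner, 6 had a partner called higher, 1 a partner called lower and 10 a partner not called.

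**Figure D5:**
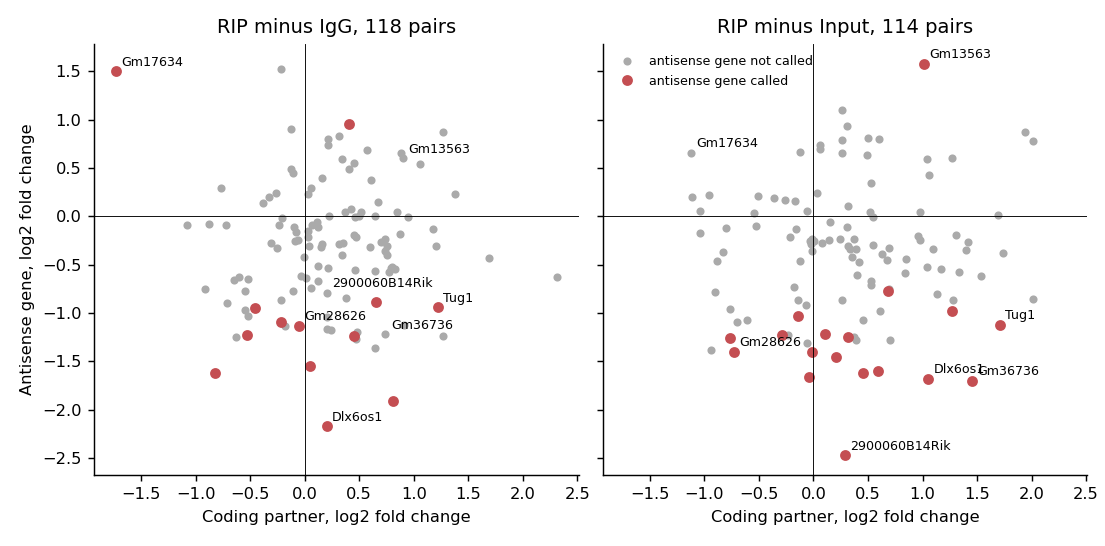
Log2 fold change of each tested antisense gene (y axis) against that of its coding partner (x axis), RIP minus IgG (left, 118 pairs) and RIP minus Input (right, 114 pairs), with called antisense genes in red. Most red points lie below 0 on the y axis on both sides of 0 on the x axis, and Tug1 and Gm36736 lie at the lower right against Input.

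The pair test asks whether the 2 strands differed in their change. Against IgG, 5 of 157 antisense-coding pairs were called (3.2%, beside 1.47% of all 1433 opposite-strand pairs), and 0 with the trio block, without RIP A or without RIP B. Against Input, 33 of 149 were called (22.1%, beside 21.3% of all 1429 pairs), 31 of them with the antisense gene lower relative to the coding gene, and 0 without RIP A or RIP B. The median difference, antisense minus coding, was -0.48 and -0.55. Pairs without an antisense gene were taken as plus strand minus minus strand, an arbitrary sign. The medians over all pairs (-0.07 and 0.02) are therefore no background for it. The share of pairs called against Input was close to the background.

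Against IgG, Gm26604 and the calcium release channel gene Ryr1 differed by -2.94 (SE 0.34), with Gm26604 at 0.628 and 1.65 FPKM in RIP and 1.65 and 2.89 in IgG and Ryr1 at 37.9 and 41.8 against 6.59 and 7.97. 9330171B17Rik and Kif7, a kinesin of Hedgehog signalling, differed by -2.12, with Kif7 at 8.51 and 10.2 against 2.44 and 1.96. In both pairs the coding gene was called higher and the antisense gene was not called. The reverse case was Gm17634, which differed from Rnf152 by 3.23 (SE 0.37, limma adjusted p = 0.0437), with Rnf152 at 2.28 and 1.30 against 9.37 and 7.03. All 5 pairs called against IgG had an adjusted p of 0.110 with the trio block.

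Against Input the largest difference was Gm36736 minus Hs3st2 at -3.15 (SE 0.30, limma adjusted p = 0.0165). Zfhx2os and the neuronal homeobox gene Zfhx2 differed by -2.85 (SE 0.41, limma adjusted p = 0.0172), with Zfhx2os at 8.78 and 4.25 FPKM in RIP and 9.59 and 14.7 in Input and Zfhx2 at 97.8 and 96.4 against 23.0 and 23.8. The 2 share 3255 exonic bases, yet only Zfhx2 was called. 2900060B14Rik minus Clasp1 (-2.76) and Gm16341 minus Armc9 (-2.25) followed. In the other direction Gm5577 differed from Rab7, a late endosome GTPase, by 1.35 and Gm17634 from Rnf152 by 1.77. Without RIP A or RIP B none of these pairs was called.

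The partner groups chosen for this tissue held few tested members, too few to set their shares against those of all genes. Of all genes 13.7% were called higher and 9.69% lower against IgG, and 19.3% and 16.6% against Input. Of all coding genes 15.8% were called higher against IgG and 22.1% against Input. Of 33 members beside homeobox and other patterning factors, 9 were tested against IgG, with 0 called higher, 2 lower (Dlx6os1 and A830082K12Rik) and a median log2 fold change of -0.77. Against Input 8 were tested and 3 were lower, the third being Gm11266, with a median of -0.76, while 4 of their 7 tested partners were called higher. For 22 members beside neuronal channel, adhesion and synapse genes, 3 and 4 were tested and 1 was lower, Kcnq1ot1 against IgG. For 11 members beside chromatin genes, 1 and 2 were tested and 0 were called. Their partners were called higher each time, Fbrsl1, an AUTS2 paralogue beside Gm42596, by 0.77 and 1.17, and the histone methyltransferase gene Kmt2a beside AC061963.1 by 1.74 against Input. In the cKO 0 of the 9, 2 and 0 tested members of these groups were called.

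By arrangement, lower calls against IgG fell on 7 of 64 head-to-head members, 5 of 42 inside a coding gene, 2 of 30 tail to tail and 2 of 8 that enclose a coding gene, beside 9.69% of all genes. Against Input they fell on 10 of 66, 6 of 34, 6 of 33 and 1 of 7, beside 16.6%. The larger of these classes lay near the share of all genes. The median log2 fold change was negative in each of these classes in both comparisons, from -0.17 (tail to tail, IgG) to -0.43 (head to head, Input). Members without an opposite-strand coding gene gave medians of -0.11 against IgG and -0.78 against Input, with 0 of 8 and 1 of 9 called lower. Members without any exonic base facing an exon gave medians of -0.38 and -0.50, and members with 50% or more gave -0.30 and -0.20. Taking only those transcripts that face no exon on the other strand, 4 of 44 members were lower and 0 higher against IgG, and 10 of 43 lower and 0 higher against Input. In the same fits 1401 of 14462 genes were lower and 1994 higher against IgG, and 2382 of 14352 lower and 2796 higher against Input.

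Well-studied antisense RNAs were mostly low in this tissue. Of the listed names, 23 are members, and Dlx4os, Hotairm1, Evx1os, Hoxb3os, Hoxb5os and Hnf1aos1 were at 0 in every library. Emx2os, at the cortical patterning gene Emx2, stood at 0.296 to 0.403 FPKM in WT and 0.273 to 0.615 in the cKO, and Tsix, the antisense RNA of Xist, at 0 to 0.0384 and 0 to 0.0532. Zeb2os stood at 1.97 to 3.08 in WT and 2.46 to 3.06 in the cKO. Nespas, the imprinted RNA at Gnas, stood at 0.424 to 0.659 in WT, and at 1.72 and 3.42 in RIP against 4.10 and 11 in IgG, where it was not called. No member given a value in this paragraph was called in a comparison.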

How the data were processed

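Expression was read from 3 tables of FPKM values per transcript that the authors deposited, covering frontal cortex (4 WT and 4 cKO libraries), the pull-down with its IgG control, and the pull-down with its Input (2 libraries a group). Per the file headers, transcripts carry GENCODE vM14 identifiers. Per the submitters' processing notes, STAR 2.5, SAMtools and Cuffdiff 2.2.1 and the GRCm38.p4 (mm10) build were named, with no roles given; no source used here gives the strand setting, filters or scaling. The tables were scaled separately, so levels were not tested across them. The library cKO 4 was matched to its column by number, since label and column give different short names. Nothing in the labels says that frontal cortex replicates are separate animals, so p-values measure the spread between these samples.

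Of 128508 transcripts, 127975 were found in GENCODE vM21 through their identifiers (533 were not), and these were summed per symbol. log2(FPKM + 1) was tested with limma 3.58.1 (R 4.3.3; trend and robust empirical Bayes, two-sided, Benjamini-Hochberg over all genes averaging 1 FPKM or more, threshold 0.05); pair differences were tested over all overlapping opposite-strand pairs. All fold changes are on this scale, which understates changes of low genes. Sequence shared between genes was searched with BLAST 2.17.0. Scripts were tested on simulated data. Exact 0 values may be failed estimates.

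The series' design text calls A and B matched trios, so a fit with the trio as a block was run; deviations of same-letter libraries correlated at 0.009 (RIP and IgG) and 0.012 (RIP and Input). Other alternatives were the pseudocount (0.1, 5), the filter (none, 5 FPKM), median-ratio and quantile scaling, plain limma, sums per identifier, transcripts facing no exon, removal of length and GC trends, Xist state as a covariate and each library left out.

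Named were the 12 members highest in WT, up to 12 called rises and falls without overlap whose higher group averaged 2 FPKM or more (with under 5 called, the 5 highest and 5 lowest statistics), members at Auts2, a list of well-studied RNAs and the 6 largest called pair differences each way. Other called members were named after their values were seen. Members and lists were chosen with earlier results of these data known. The values of 1 called pair are not reported here.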

Additional observations from a re-analysis of the deposited data

Results flagged for a closer look

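In groups of 4 libraries, 48 in all, a value was singled out when its gap to the nearest other value took up most of the group's range (Dixon's 95% limit), which chance does in about 1 of 20 groups. Tug1 in WT replicate 4 stood at 53.1 FPKM, with the other WT libraries at 47.7 to 48.1. Tug1 in cKO replicate 1 stood at 44.7, with the other cKO libraries at 51.0 to 51.5. Gm2164, beside Pou3f1, stood at 5.20 in WT replicate 2, with the other WT libraries at 2.51 to 2.77.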

How the results depend on the processing

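In frontal cortex the count of called members and pairs was 0 under each alternative run. WT and cKO libraries share only a number: same-number deviations correlated at 0.176, 0.017, -0.039 and 0.066, not every library correlated best with its own number, and the replicate block called 0 members and, of all genes, 2 higher and 2 lower.

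Against IgG, the 4 higher calls became 2 with the replicate block, 0 on transcripts facing no exon and 0 to 3 with a library left out. The 16 lower calls became 10 without the filter, 9 with quantile scaling, 4 on transcripts facing no exon, 10 with length and GC trends removed and 0 to 11 with a library left out. The 5 pairs became 1 at a pseudocount of 0.1, 38 at 5, 0 with the replicate block and 0 to 30 with a library left out (0 without RIP A or B). Against Input, the 2 higher calls became 5 with quantile scaling, 0 on transcripts facing no exon, 7 with length and GC trends removed and 0 to 4 with a library left out. The 24 lower calls became 13 at a 5 FPKM minimum, 10 on transcripts facing no exon and 6 to 19 with a library left out. The 33 pairs became 5 at a pseudocount of 0.1, 56 at 5, 12 at a 5 FPKM minimum and 0 to 44 with a library left out. Fewer genes entered the stricter filters; other causes were not tested. A lone library was assumed to vary like the other group.

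Of single members, 180 of 276 refits against IgG and 272 of 360 against Input kept the call, and no direction turned. With the block Gm2415 lost its call against Input. Dlx6os1, Gm14236, 2900060B14Rik, Gm15564 and Tug1 kept theirs against Input throughout. Depth is unknown, so no counting error can be given.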
